A study of Mus musculus with 8 samples.

Results

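The CatSper calcium channel and the KSper potassium channel carry the main ion currents of the sperm tail, and their transcripts were followed here in round spermatids, the germ cells that have just left meiosis, of 4 Miwi genotypes. The genes were taken by name as members of these channels: Catsper1 to Catsper4, Catsperb, Catsperd, Catsperg1, Catsperg2, Kcnu1 and Lrrc52. The rule that picks them uses no measured value, but it was chosen with earlier results of these data known. Of these 10 genes, 8 had a transcript cluster (the array's unit of summed probes) of their own, out of 19938 genes measured in all, and each of the 8 was read on its single cluster. Catsperg1 and Catsperg2 share a cluster annotated to both, which cannot be assigned to either gene and was left out. Round spermatids had been purified on a bovine serum albumin gradient from testes of adult C57BL/6 mice, and total RNA was hybridised to 8 Affymetrix arrays, 2 per genotype. The genotypes differ at Piwil1, the gene of the piRNA-binding protein MIWI. MIWI +/- and MIWI +/KI keep 1 wild-type copy, paired with a null copy in the first and a knock-in copy in the second. MIWI -/- has null copies only, and MIWI -/KI pairs a null with a knock-in copy. No group is wild-type on both chromosomes, so each comparison is between mutant or carrier genotypes. Replicates are labelled as biological, but not as single animals or pools, and the p-values cover the spread between RNA samples of this kind. The series concerns MIWI catalysis and LINE1 silencing, and the labels say no more of the knock-in allele.

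CatSper is a sperm-specific, voltage-gated calcium channel that opens as the cell becomes alkaline and is needed for hyperactivated swimming and male fertility. Its pore is formed by the proteins of Catsper1, Catsper2, Catsper3 and Catsper4, and the proteins of Catsperb, Catsperd and the Catsperg genes are accessory subunits of the complex. Kcnu1 encodes SLO3, the alkaline-sensitive potassium channel of sperm, which hyperpolarises the membrane, and Lrrc52 encodes its leucine-rich repeat gamma subunit. The channels work in mature sperm, while their mRNAs are made earlier, in spermatocytes and spermatids.

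The 250 bases before the annotated start are shown for the genes whose levels are contrasted below: Catsper2, the gene that passed the test, Catsper3 and Catsperd, which were highest on both MIWI -/KI arrays, Catsperb, which was high on MIWI -/KI replicate 2 alone, and Lrrc52, which was highest on both MIWI +/KI arrays. They are from RefSeq on GRCm38.p6, 5′ to 3′ on the gene's strand, and capitals mark TGACG or its reverse complement CGTCA, the short form of the cAMP response element, searched on both strands.
Catsper2 (chr2:121413793-121414042, - strand): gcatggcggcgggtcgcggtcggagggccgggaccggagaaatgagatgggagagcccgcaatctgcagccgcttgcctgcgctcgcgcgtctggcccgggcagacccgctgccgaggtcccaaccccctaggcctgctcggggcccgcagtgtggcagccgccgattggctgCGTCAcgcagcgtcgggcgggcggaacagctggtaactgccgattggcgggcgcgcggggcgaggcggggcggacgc
Catsper3 (chr13:55784329-55784578, + strand): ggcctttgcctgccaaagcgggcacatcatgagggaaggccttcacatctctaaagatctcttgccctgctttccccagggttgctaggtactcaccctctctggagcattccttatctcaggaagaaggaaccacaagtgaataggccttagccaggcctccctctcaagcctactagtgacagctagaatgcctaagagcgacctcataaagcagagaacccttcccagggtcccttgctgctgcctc
Catsperd (chr17:56626797-56627046, + strand): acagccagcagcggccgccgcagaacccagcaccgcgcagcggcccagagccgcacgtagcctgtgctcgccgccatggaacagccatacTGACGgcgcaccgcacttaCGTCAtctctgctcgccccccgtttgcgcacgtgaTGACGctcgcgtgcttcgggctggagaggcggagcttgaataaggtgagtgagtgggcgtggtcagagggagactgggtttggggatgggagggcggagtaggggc
Catsperb (chr12:101404423-101404672, + strand): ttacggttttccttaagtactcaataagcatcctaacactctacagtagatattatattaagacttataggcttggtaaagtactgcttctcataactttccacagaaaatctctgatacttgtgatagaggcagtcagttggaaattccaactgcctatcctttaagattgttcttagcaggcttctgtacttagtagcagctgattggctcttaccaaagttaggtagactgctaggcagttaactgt
Lrrc52 (chr1:167466781-167467030, - strand): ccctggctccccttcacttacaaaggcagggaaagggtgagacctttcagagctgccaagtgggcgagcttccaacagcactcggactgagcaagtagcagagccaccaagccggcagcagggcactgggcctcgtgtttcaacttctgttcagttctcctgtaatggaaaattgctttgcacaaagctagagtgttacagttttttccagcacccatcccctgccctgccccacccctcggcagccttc
The Catsper2 window held 35 CpG dinucleotides and 74.8% G and C, and the first Catsperd window 25 CpG and 66.8%. The windows of Lrrc52 (5 CpG), Catsper3 (2) and Catsperb (1) and that of Catsper4 (1, not printed) lay below the median of 6 over 32851 windows in the table. TGACG occurred once before Catsper2, 77 bases before the start, and 3 times in the first Catsperd window, and in none of the windows of the other 4 genes or the second window of Catsperd. It occurs in 17.8% of all windows. The full element TGACGTCA, which contains TGACG on both strands, was in none of these windows and is in 1.55% of all. Such matches describe letters and not binding sites. Catsper1 and Kcnu1 were not matched in the table.

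All 64 values of the 8 genes, from 488 to 2717, lay above the upper quartile of their array, which ran from 208 to 234. Array medians were 66.6 to 71.8. Arrays of 1 genotype correlated with r between 0.970 (MIWI -/KI) and 0.9951 (MIWI +/KI) over all clusters. MIWI -/KI replicate 1 correlated less with its own replicate than with any other array (0.9737 to 0.9885). MIWI -/- replicate 2 correlated at 0.9836 with its own replicate and at 0.9855 and 0.9858 with the MIWI +/KI arrays. The arrays thus did not all lie nearest to their own genotype. Piwil1 itself read 389 and 371 in MIWI +/-, 196 and 151 in MIWI -/-, 680 and 749 in MIWI +/KI and 672 and 696 in MIWI -/KI, so the MIWI -/- arrays were the lowest. MIWI -/KI and MIWI +/- each have 1 copy that is not null. Piwil1 was nevertheless higher in MIWI -/KI (log2 fold change 0.85, SE 0.17, adjusted p = 0.0275 by limma's moderated test). Between MIWI -/KI and MIWI +/KI it differed by -0.061 (SE 0.17), so the signal did not follow the number of such copies. The labels do not say which part of the gene the null allele lacks, so this signal is a partial check of the genotypes. Of 11 round spermatid markers listed for a check of the labelled cell type, Tnp1, Prm1 and Tssk2 fell and Acr and Tex101 rose in MIWI -/- against MIWI +/-, which is 5 of 11 beside 6.13% of all genes. The list was chosen with earlier results of these data known, so this count is not an independent excess over all genes. Their summed intensity was 19089 to 20810 in MIWI +/-, 16015 to 17107 in MIWI +/KI, 14222 to 15671 in MIWI -/- and 14868 to 16733 in MIWI -/KI. This order of the sums rests on Tnp1 and Prm1: the other 9 markers, a split made after the values were seen, summed to 12805 to 12948, 12487 to 13218, 13606 to 14592 and 13739 to 15196 in the same order, so that both groups without a wild-type allele were above MIWI +/-. That second order rests in turn on Tex101, which is among the 9. It read 326 and 368 in MIWI +/-, 556 and 493 in MIWI +/KI, 2167 and 1511 in MIWI -/- and 2021 and 1779 in MIWI -/KI. The sums thus do not show a rise of the other markers as a set. The lowest single value of these markers, 244 for Tnp1 in MIWI -/- replicate 2, lay above every array's upper quartile.

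**Figure D1:**
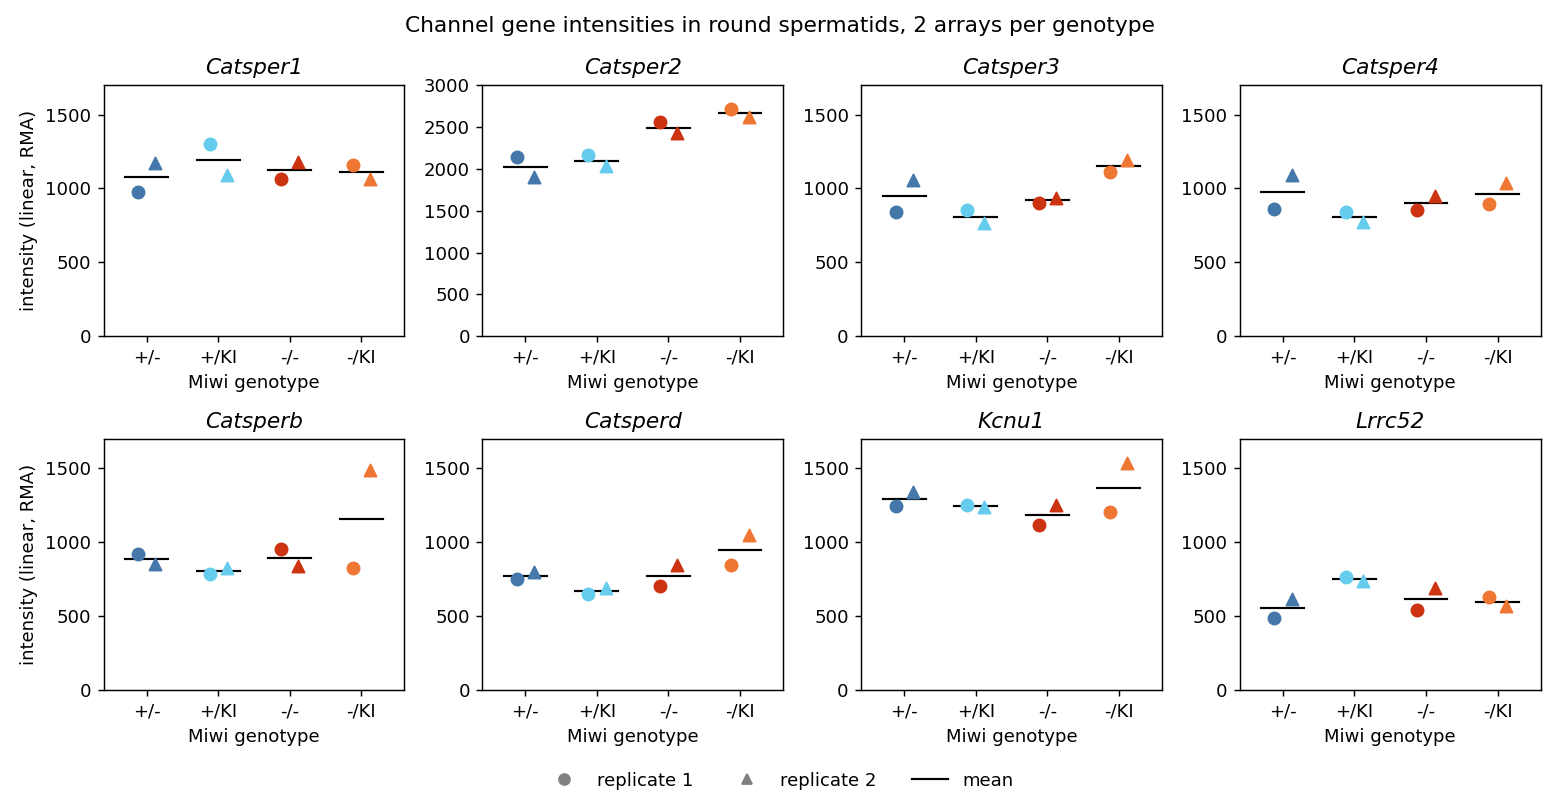
Linear intensity (y axis, from 0) of the 8 channel genes by Miwi genotype (x axis), with circles for replicate 1, triangles for replicate 2 and a bar for the mean of 2 arrays; the Catsper2 panel has a longer axis. Catsper2 is the gene whose 4 arrays without a wild-type allele, from 2421 to 2717, all lie above the 4 with one, from 1902 to 2160, and MIWI -/KI replicate 2 stands apart for Catsperb at 1489.

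Between MIWI -/- and MIWI +/- the channel transcripts differed little. None of the 8 genes passed the test (limma's moderated test, adjusted over all 35512 clusters, threshold 0.05), beside 6.13% of all genes, and 1 of 8 had an unadjusted p under 0.05, beside 18.7%. That gene, Catsper2, was also the 1 whose arrays did not overlap, beside 49.4% of all genes. Their log2 fold changes ran from -0.13 to 0.30 with a median of 0.0016, against 0.010 over all genes. The 95% intervals of all 8 lay within a 2-fold change either way, and those of 7 within 1.5-fold. A difference as large as the fall of Cabs1, a calcium-binding protein of spermatids (-2.91, SE 0.13, adjusted p = 3.42e-05), thus lay outside every interval. In such bulk RNA, fewer cells of a type and less RNA per cell cannot be told apart.

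Among the pore genes, Catsper1, whose protein has a histidine-rich cytoplasmic end, read 979 and 1172 in MIWI +/-, 1299 and 1092 in MIWI +/KI, 1064 and 1180 in MIWI -/- and 1161 and 1061 in MIWI -/KI. The arrays of all genotypes overlapped, and the mean was 1122 ± 81.8 (SD, n = 2) in MIWI -/- and 1075 ± 136 (SD, n = 2) in MIWI +/-. The log2 fold change was 0.065 (SE 0.15, 95% interval 0.819 to 1.34 as a fold, adjusted p = 0.951).

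Catsper2, another pore subunit, read 2143 and 1902 in MIWI +/-, 2160 and 2028 in MIWI +/KI, 2556 and 2421 in MIWI -/- and 2717 and 2623 in MIWI -/KI. The genotypes with a wild-type allele overlapped each other, and every array without one was higher than every array with one. Without against with a wild-type allele, the mean of 2 matched differences (MIWI -/- less MIWI +/-, and MIWI -/KI less MIWI +/KI), Catsper2 rose by 1.25-fold (log2 fold change 0.33, SE 0.078, 95% interval 1.11 to 1.42 as a fold, adjusted p = 0.0496, higher in 4 of 4 arrays). It was the 1 gene of 8 called in that comparison, beside 8.26% of all genes in either direction and 4.33% higher, the 1 with an unadjusted p under 0.05, beside 20.6%, and the 1 whose arrays did not overlap, beside 15.9% in either direction and 9.38% higher. So the share of channel genes called was close to that of all genes. The rise by genotype was 0.30 (SE 0.11, adjusted p = 0.220) in MIWI -/- against MIWI +/-, 0.40 (SE 0.11, adjusted p = 0.0964) in MIWI -/KI against MIWI +/- and 0.35 (SE 0.11, adjusted p = 0.172) in MIWI -/KI against MIWI +/KI, none of which passed by itself. The first 2 share the MIWI +/- arrays. The difference between the effects beside a null and beside a knock-in allele was 0.050 (SE 0.16, 95% interval 0.806 to 1.33 as a fold, adjusted p = 0.943).

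The Catsper2 call lay close to the threshold. It was lost when any 1 of 7 arrays was left out, with adjusted p of Catsper2 at 0.101 and 0.211 when MIWI +/- replicate 1 or 2 was left out, at 0.193 and 0.264 for MIWI +/KI replicate 1 or 2, at 0.115 and 0.0711 for MIWI -/- replicate 1 or 2, and at 0.0596 for MIWI -/KI replicate 2. It was kept without MIWI -/KI replicate 1 (0.0473). The log2 fold change itself stayed between 0.28 and 0.37. It was also lost with array weights (adjusted p = 0.0691), without the intensity trend (0.0919) and with outlying cells of other clusters kept as deposited (0.0507), and adjusted p was between 0.0169 and 0.0492 under the other alternatives.

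Catsper3, a pore subunit, read 843 and 1055 in MIWI +/-, 853 and 763 in MIWI +/KI, 901 and 937 in MIWI -/- and 1109 and 1193 in MIWI -/KI. Both MIWI -/KI arrays were above all 6 others. Its largest difference was in MIWI -/KI against MIWI +/KI (log2 fold change 0.51, SE 0.15, 95% interval 1.12 to 1.82 as a fold, unadjusted p = 0.00950), and it did not pass after adjustment (adjusted p = 0.145). In MIWI -/- against MIWI +/- it was -0.038 (SE 0.15, adjusted p = 0.976), and the difference between these 2 effects was 0.55 (SE 0.21, adjusted p = 0.372).

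Catsper4, the remaining pore subunit, read 858 and 1094 in MIWI +/-, 838 and 776 in MIWI +/KI, 853 and 952 in MIWI -/- and 894 and 1035 in MIWI -/KI. Both MIWI +/KI arrays were the lowest and all other arrays overlapped between genotypes. The difference of MIWI +/KI from MIWI +/- was -0.26 (SE 0.16, 95% interval 0.641 to 1.08 as a fold, adjusted p = 0.632).

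Of the accessory subunits, Catsperb read 921 and 855 in MIWI +/-, 783 and 826 in MIWI +/KI, 954 and 836 in MIWI -/- and 822 and 1489 in MIWI -/KI. The value of 1489 in MIWI -/KI replicate 2 stood apart, and the mean of that genotype was 1155.5 ± 471 (SD, n = 2). The gap between its arrays was 0.86 on the log2 scale, against a median gap of 0.28 and an upper quartile of 0.46 over all genes in MIWI -/KI. With both arrays the log2 fold change from MIWI +/- was 0.32 (SE 0.25, adjusted p = 0.667), and without replicate 2 it was -0.11 (adjusted p = 0.785). Without replicate 1, which leaves replicate 2 as a lone array assumed to vary like the other groups, Catsperb was called against MIWI +/- (0.75, adjusted p = 0.0218), against MIWI +/KI (0.89, adjusted p = 0.0187) and over both matched differences (0.45, adjusted p = 0.0243).

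Catsperd read 748 and 796 in MIWI +/-, 650 and 687 in MIWI +/KI, 701 and 842 in MIWI -/- and 847 and 1049 in MIWI -/KI. The MIWI -/KI arrays were the highest and those of MIWI +/KI the lowest, without overlap. Between those 2 genotypes the log2 fold change was 0.50 (SE 0.16, 95% interval 1.09 to 1.82 as a fold, unadjusted p = 0.0152, adjusted p = 0.181). It was 0.34 (adjusted p = 0.397) without MIWI -/KI replicate 2 and 0.65 (adjusted p = 0.0452) without MIWI -/KI replicate 1.

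For the potassium channel, Kcnu1 read 1244 and 1340 in MIWI +/-, 1247 and 1238 in MIWI +/KI, 1113 and 1248 in MIWI -/- and 1200 and 1534 in MIWI -/KI. The arrays of every pair of genotypes overlapped, and MIWI -/KI replicate 2 was the highest. Without against with a wild-type allele its log2 fold change was -0.0023 (SE 0.11, 95% interval 0.842 to 1.18 as a fold, adjusted p = 0.995), and in MIWI -/- against MIWI +/- it was -0.13 (SE 0.15, adjusted p = 0.841).

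Lrrc52, the gene of its gamma subunit, read 488 and 618 in MIWI +/-, 763 and 738 in MIWI +/KI, 543 and 687 in MIWI -/- and 628 and 567 in MIWI -/KI. Both MIWI +/KI arrays were above all 6 others, whose genotypes overlapped. The difference of MIWI +/KI from MIWI +/- was 0.45 (SE 0.18, 95% interval 1.03 to 1.82 as a fold, unadjusted p = 0.0355, adjusted p = 0.382). Kcnu1 differed by -0.055 (SE 0.15) in the same comparison.

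**Figure D2:**
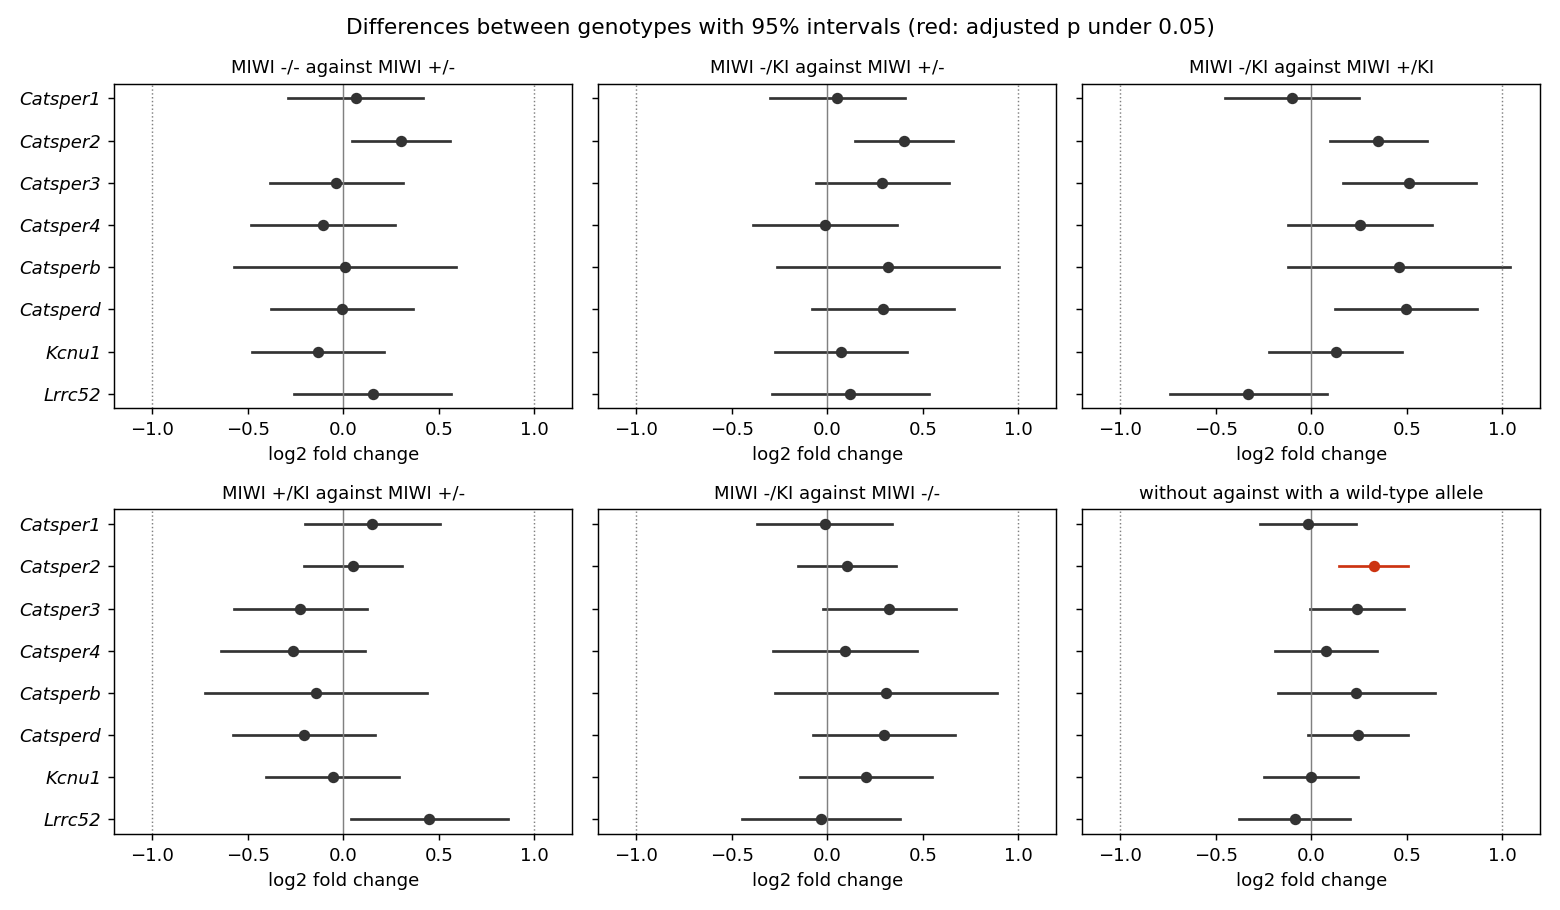
Log2 fold change (x axis) of each channel gene (y axis) in 6 comparisons, with points for limma's estimate, lines for the 95% interval and dotted lines at a 2-fold change; red marks adjusted p under 0.05. Catsper2 without against with a wild-type allele is the 1 red point, and the interval of Catsperb in MIWI -/KI against MIWI +/KI, up to 2.06-fold, is the 1 that crosses a dotted line.

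Between MIWI -/KI and MIWI +/-, which share the null allele and differ in carrying the knock-in or the wild-type allele, 0 of 8 genes passed limma's test, beside 6.23% of all genes, and 1 had an unadjusted p under 0.05, beside 18%. The estimates ran from -0.010 to 0.40 with 7 of 8 above 0, with a median of 0.20 against -0.0044 over all genes. Catsper2, Catsper3 and Catsperd had arrays that did not overlap, all higher, which is 3 of 8 beside 41.4% of all genes in either direction and 23.2% higher.

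Between MIWI -/KI and MIWI +/KI, 0 of 8 genes passed, beside 2.43% of all genes, while Catsper2, Catsper3 and Catsperd had an unadjusted p under 0.05, which is 3 of 8 beside 17.9%. Arrays did not overlap for Catsper2, Catsper3, Catsper4 and Catsperd, which were higher (beside 25% of all genes), and for Lrrc52, which was lower (beside 24.1%), in all 5 of 8 beside 49.1%. The median of the 8 was 0.30, against -0.033 over all genes, and the intervals of 7 lay within a 2-fold change.

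Between MIWI +/KI and MIWI +/-, which differ in the allele beside the wild-type one, 0 of 8 passed, beside 0.0953% of all genes, and 1, Lrrc52, had an unadjusted p under 0.05, beside 11.7%. The 8 estimates lay between -0.26 and 0.45, with 3 of 8 above 0. Arrays did not overlap for 4 of 8, beside 56.9% of all genes: Lrrc52 was higher (beside 30.9%) and Catsper4, Catsperb and Catsperd were lower (beside 26%).

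Between MIWI -/KI and MIWI -/- no gene of the 19938 passed, so percent called was 0, and none of the 8 had an unadjusted p under 0.05, beside 4.55%. Piwil1 itself, 3.98-fold higher in MIWI -/KI (log2 fold change 1.99, SE 0.17, adjusted p = 0.0816 by limma), did not pass either. The lack of calls thus does not show that these genotypes are alike. Catsper2, Catsper3 and Catsperd again had MIWI -/KI arrays above the other genotype's (3 of 8, beside 22.8% of all genes in either direction and 11.9% higher), with differences of 0.10, 0.32 and 0.30, and each of these comparisons shares the MIWI -/KI arrays with the previous ones. The test of the difference between the effects of losing the wild-type allele beside a null and beside a knock-in allele called 0 of 8 and 0 of all genes, with 1 of 8 at an unadjusted p under 0.05, beside 13%.

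The array MIWI -/KI replicate 2 was the highest of the 8 for Catsper3, Catsperb, Catsperd and Kcnu1, which is 4 of 8 genes, beside 21.7% of all genes. It also had the highest level of spermatocyte markers, the cells before the haploid stage: over 10 markers the median deviation from the gene mean was 0.59 on that array and between -0.27 and 0.18 on the others. Their summed intensity was 4921 to 5669 in MIWI +/-, 4435 to 4455 in MIWI +/KI, 3826 to 5369 in MIWI -/- and 4251 to 6230 in MIWI -/KI. The lowest single value, 107 for Msh4 in MIWI +/KI replicate 1, lay above every array median. Syce2, which supplied much of the MIWI +/- sums, ran against the other 9: without it, a choice made after the values were seen, the sums were 3257 to 3536, 2986 to 3129, 3241 to 4601 and 3321 to 5559, the last being MIWI -/KI replicate 2. The synaptonemal complex genes Sycp1 (0.80) and Sycp3 (0.87) and the meiotic recombination gene Meiob (0.89) were high on it, as was Catsperb (0.70), while Syce2 (-0.69) was low. On MIWI -/- replicate 1, Sycp1 (0.48) and Sycp3 (0.61) were also high, with Meiob at 0.07, Catsperb at 0.06 and Catsperd at -0.16. The part of spermatocyte RNA in these values was not tested. Across the 8 arrays Catsperb and Catsperd correlated with r = 0.74, and without MIWI -/KI replicate 2 with r = 0.01. Catsper3 and Catsperd kept r = 0.76 of 0.85, Catsper3 and Catsper4 r = 0.75 of 0.81, and Catsper1 and Lrrc52 r = 0.80 of 0.81, as descriptions over 7 and 8 arrays that share genotype and preparation.

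**Figure D3:**
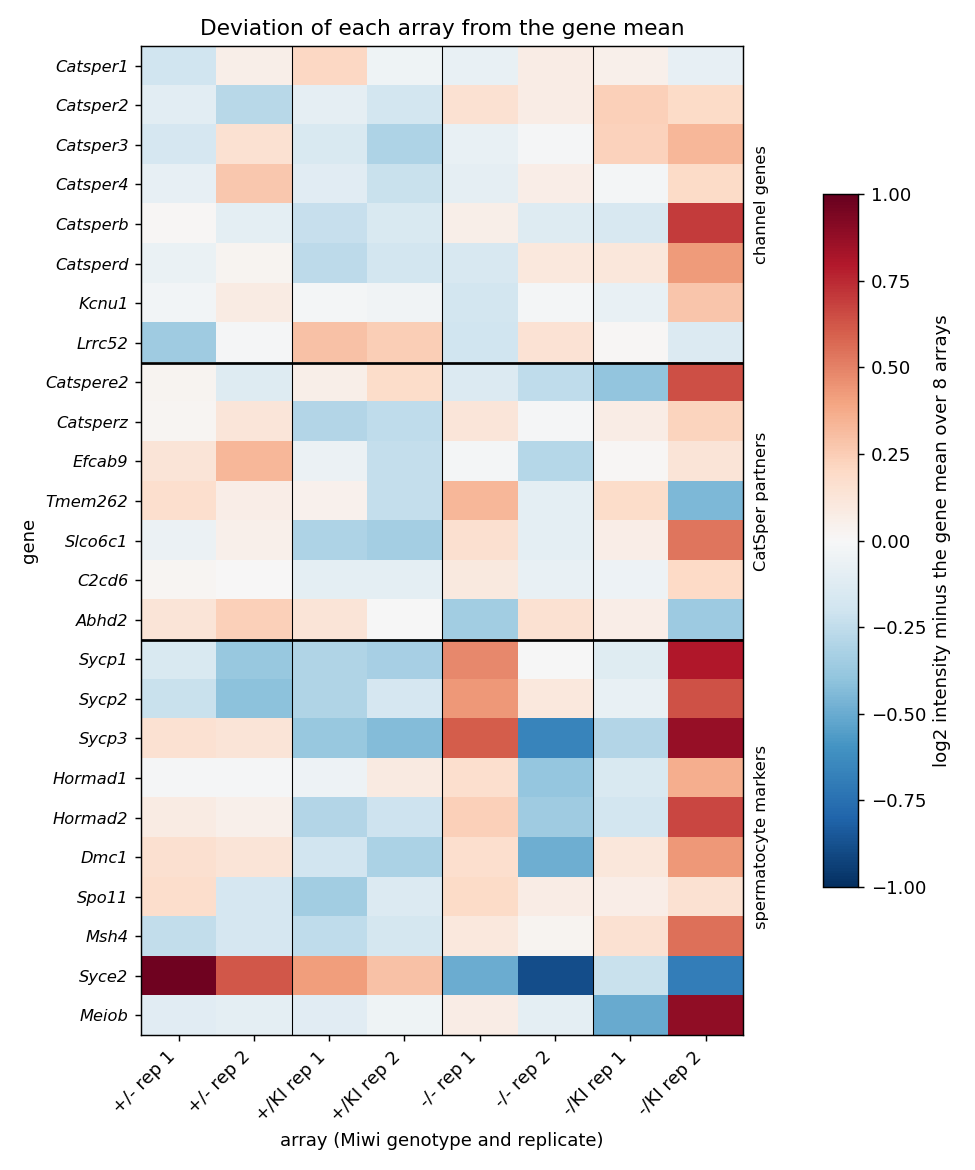
Log2 intensity minus the gene's mean over 8 arrays (colour) for the channel genes, 7 CatSper partner genes and 10 spermatocyte markers (rows) on each array (columns, by Miwi genotype and replicate). The last column, MIWI -/KI replicate 2, is red for Catsperb (0.70), Sycp1 (0.80) and Sycp3 (0.87). Catsper2 is above 0, though pale (0.07 to 0.24), in the 4 columns without a wild-type allele.

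The other genes of the complex or of its control were Catspere2, Catsperz, Efcab9, Tmem262, Slco6c1, C2cd6 and Abhd2, the last of which encodes a progesterone-dependent lipid hydrolase that acts on the channel from outside the complex. None of these 7 passed limma's adjusted threshold in any of the 7 comparisons. Efcab9, Catsperz and Slco6c1 had unadjusted p-values under 0.05 in some of them, among these Efcab9 in MIWI -/- against MIWI +/- (-0.38, SE 0.15, unadjusted p = 0.0303, adjusted p = 0.239), and all 3 in the difference of differences (Efcab9 0.60, Catsperz 0.44 and Slco6c1 0.59, with adjusted p from 0.307 to 0.410). These differences were not tested against those of the channel genes. Without against with a wild-type allele the median of the 7 was -0.019, against -0.0095 over all genes. Catsperz, which encodes a small subunit, read 2387 and 2553 in MIWI +/-, 1921 and 1972 in MIWI +/KI, 2549 and 2328 in MIWI -/- and 2470 and 2739 in MIWI -/KI. Its MIWI +/KI arrays were the lowest, and its difference of MIWI -/KI from MIWI +/KI was 0.42 (SE 0.11, adjusted p = 0.115). Slco6c1, an organic anion transporter found with the complex, read 1365 and 1475, 1149 and 1127, 1591 and 1333, and 1491 and 2062 in the same order of genotypes. It too was lowest in MIWI +/KI and highest in MIWI -/KI replicate 2 (0.62, SE 0.17, adjusted p = 0.128, between the same genotypes). Of 9 relatives of the potassium channel, Kcnt2, a sodium-activated potassium channel gene, rose in MIWI -/KI against MIWI +/- (1.52, SE 0.25, adjusted p = 0.0128) and over both matched differences (1.14, SE 0.18, adjusted p = 0.00776), and no other passed in any comparison. All its values, 23.1 to 95.8, lay below the upper quartile of the arrays. All but the 95.8 of MIWI -/KI replicate 2 also lay below the array medians of 66.6 to 71.8, so this rise is in a dim signal.

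Some genes that act beside the channels passed the test, while most of those listed did not. A difference between these lists and the channel genes was not tested. Of 18 genes of sperm ion transport and pH, Atp1a4, the sodium pump subunit of sperm, read 4272 and 4220 in MIWI +/-, 3133 and 3056 in MIWI +/KI, 1614 and 2024 in MIWI -/- and 2104 and 2041 in MIWI -/KI. Every array without a wild-type allele was below every array with one. It fell in MIWI -/- (-1.23, SE 0.13, adjusted p = 0.00127) and in MIWI -/KI (-1.03, SE 0.13, adjusted p = 0.00354) against MIWI +/-. Adcy10, the bicarbonate-activated adenylyl cyclase upstream of sperm capacitation, fell in MIWI -/- (-0.67, SE 0.12, adjusted p = 0.0176), and the calcium channel gene Cacna1h (0.96, adjusted p = 0.0168) and the anion transporter gene Slc26a8 (0.57, adjusted p = 0.0316) rose there. Cacna1h read 449 and 451 in MIWI +/-, 873 and 885 in MIWI +/KI, 754 and 1019 in MIWI -/- and 553 and 519 in MIWI -/KI, so it was also high beside a wild-type allele in MIWI +/KI (0.97 against MIWI +/-, adjusted p = 0.110) and differed by 0.25 (adjusted p = 0.581) in MIWI -/KI. Slc26a8 read 1121 and 1113 in MIWI +/- and 1420 and 1452 in MIWI +/KI. In MIWI -/- it read 1633 and 1683, and in MIWI -/KI 1413 and 1569. It too was higher in MIWI +/KI than in MIWI +/-. The list thus had 2 rises and 2 falls in MIWI -/- and 0 and 1 in MIWI -/KI against MIWI +/-, beside the 2.6% of all genes higher and 3.53% lower in the first and 3.11% and 3.12% in the second, with medians of 0.058 and 0.18. Against MIWI +/KI, the ATP-gated channel gene P2rx2 fell in MIWI -/KI (-1.26, SE 0.22, adjusted p = 0.0348), as 1 of 18 beside 2.43% of all genes in either direction. It read 201 and 187 in MIWI +/-, 315 and 351 in MIWI +/KI, 97.9 and 138 in MIWI -/- and 161 and 119 in MIWI -/KI. The reference group of this fall was thus also above MIWI +/-. Slc9c1, the sperm sodium-proton exchanger, was not called (0.33, SE 0.15, adjusted p = 0.327, without against with a wild-type allele).

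Of 12 sperm calcium effector genes 3 fell and none rose in MIWI -/-, and 3 fell in MIWI -/KI, both against MIWI +/-, beside 3.53% and 3.12% of all genes lower, with medians of -0.24 and -0.18. Cabs1 read 3306 and 2905 in MIWI +/-, 1706 and 1766 in MIWI +/KI, 405 and 421 in MIWI -/- and 579 and 662 in MIWI -/KI, 4 ranges with no overlap. Camk4, a calmodulin-dependent kinase, fell by 1.65 in MIWI -/- (SE 0.14, adjusted p = 0.000667) and by 1.21 in MIWI -/KI (adjusted p = 0.00327) on the log2 scale, and Plcz1, the sperm factor that starts calcium oscillations in the egg, by 1.00 and 0.77 (adjusted p = 0.0105 and 0.0307). Camk4 read 763 and 791 in MIWI +/-, 384 and 340 in MIWI +/KI and 327 and 343 in MIWI -/KI. Plcz1 read 2163 and 2041, 1342 and 1256, and 1063 and 1427 in the same order. For both, MIWI +/KI was thus also below MIWI +/- and overlapped MIWI -/KI. Cabs1 was the 1 of these 3 genes that also fell in MIWI -/KI against MIWI +/KI (-1.49, SE 0.13, adjusted p = 0.00260). The sperm calcineurin subunit genes Ppp3cc (0.21, adjusted p = 0.200) and Ppp3r2 (0.015, adjusted p = 0.983) were not called without against with a wild-type allele.

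Of 2653 genes outside the 10 whose 8 values spanned at least 1 on the log2 scale, those most like Catsper2 over the 8 arrays were Lims1, which encodes a focal adhesion adaptor (Pearson r = 0.987), Lrp12 (0.979) and the sphingomyelinase gene Smpd2 (0.975). Lims1 read 175 and 139 in MIWI +/-, 189 and 181 in MIWI +/KI, 266 and 239 in MIWI -/- and 298 and 285 in MIWI -/KI, the same order of genotype means as Catsper2 with a wider range. The 8 points share the same arrays, and the 3 genes are the top of a search over all those genes.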

How the data were processed

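The deposited values are linear intensities, 1 per cluster and array. Per the submitters' processing notes the authors obtained them by RMA (version not stated). A total of 8 values, none of a channel gene, exceeded 100 times their cluster's median on the remaining arrays and were set to missing. Log2 of each intensity was then fitted for all 35512 clusters with limma 3.58.1 (R 4.3.3), with 1 mean per genotype over the 8 arrays. Variances were moderated with a trend on intensity, which gave 3.976 prior beside 4 residual degrees of freedom. The tests are two-sided, and p-values were adjusted by Benjamini and Hochberg's method over every cluster, with 0.05 as the threshold. Intervals are 95% from limma's moderated standard error, and SD is over 2 linear intensities. Each gene was read on its single-symbol cluster with the highest mean; symbols are the platform annotation's, with older list names matched through Entrez IDs. The number of arrays limits the precision. The script was tested on simulated data.

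Members and gene lists were chosen with earlier results of these data known. Named from each list were up to 4 genes past the threshold and up to 2 others with values, plus the 3 genes most like each called channel gene. The alternatives were the replicate number as a block, quantile normalisation repeated, an offset of 16, no dim clusters, no trend, array weights, only the groups compared, the mean of a gene's clusters, outlying cells kept, and each array left out. Lists of spermatogonia, Sertoli, Leydig, blood, and peritubular and vascular markers were also read, for the closing section. Upstream windows came from RefSeq (GRCm38.p6).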

Additional observations from a re-analysis of the deposited data

How the results depend on the processing

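Of 56 values, 8 channel genes in 7 comparisons, 50 kept their side of the threshold and 33 their sign under every alternative run. These were 9 (8 for the contrast of both matched differences and for the difference of differences, which already use all groups) and 8 more that left out an array. With 2 arrays per genotype, signs of differences near 0 are not settled, and the cause of single changes was not tested. The count of channel genes called without against with a wild-type allele fell from 1 to 0 with array weights, without the intensity trend and with outlying cells kept, and ran from 0 to 2 as arrays were left out. In MIWI -/KI against MIWI +/- it was 1 when clusters of 1 gene were averaged (Catsper2, adjusted p = 0.0425), where fewer features are tested, and 0 to 1 as arrays were left out, and in MIWI -/KI against MIWI +/KI it was 0 to 2; the highest counts came without MIWI -/KI replicate 1. The replicate numbers are not said to pair the samples, and deviations of same-numbered arrays correlated between -0.26 and 0.30; with the replicate number as a block the counts were the same, 1 without against with a wild-type allele (Catsper2, adjusted p = 0.0449) and 0 in the other comparisons. Quantile normalisation turned the sign of Catsper2 in the difference of differences (-0.024), of Catsperb in MIWI -/- against MIWI +/- (-0.026) and of Kcnu1 in MIWI +/KI against MIWI +/- (0.013). As arrays were left out, the following log2 fold changes changed sign, given as lowest to highest. In MIWI -/- against MIWI +/- these were Catsper1 -0.064 to 0.19, Catsper3 -0.20 to 0.12, Catsper4 -0.28 to 0.071, Catsperb -0.086 to 0.10, Catsperd -0.14 to 0.13 and Lrrc52 -0.016 to 0.32. In MIWI -/KI against MIWI -/- these were Catsper1 -0.088 to 0.061, Catsper4 -0.012 to 0.20, Catsperb -0.12 to 0.74 and Lrrc52 -0.20 to 0.14. In MIWI -/KI against MIWI +/- these were Catsper1 -0.078 to 0.18, Catsper4 -0.19 to 0.17, Catsperb -0.11 to 0.75, Kcnu1 -0.11 to 0.25 and Lrrc52 -0.049 to 0.29. In MIWI -/KI against MIWI +/KI these were Catsper1 -0.23 to 0.024 and Kcnu1 -0.050 to 0.30. Without against with a wild-type allele these were Catsper1 -0.083 to 0.047, Catsper4 -0.013 to 0.16 and Kcnu1 -0.091 to 0.086. In the difference of differences these were Catsper2 -0.036 to 0.14. In MIWI +/KI against MIWI +/- these were Catsper2 -0.034 to 0.14.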

Other observations

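Markers of other testicular cells, read for the content of the fractions, gave these values without against with a wild-type allele by limma's adjusted p. Each count stands beside 8.26% of all genes called in either direction and 4.33% called higher. In lists this short, a count of 0 or 1 cannot be told apart from that share. Of 9 Sertoli cell markers, Aard (-0.89) and Wt1 (-0.56) fell and none rose, with summed intensities of 1751 to 1870 in MIWI +/-, 1407 to 1722 in MIWI +/KI, 1017 to 1273 in MIWI -/- and 982 to 1224 in MIWI -/KI. Of 6 blood and macrophage markers, Aif1 (-0.76) and Alas2 (-0.79) fell, and the sums were 1956 to 2092, 1385 to 1520, 1109 to 1128 and 1154 to 1282 in the same order. Most of that sum was Aif1. Without it, a choice made after the values were seen, the other 5 markers summed to 378 to 412, 344 to 376, 339 to 377 and 373 to 422, which overlap between MIWI +/- and MIWI -/KI, and the median change of all 6 was 0.026. Of 6 peritubular and vascular markers Acta2 rose (0.96), with sums of 700 to 791, 779 to 822, 790 to 968 and 836 to 957. Acta2 itself read 188 and 165 in MIWI +/- and 172 and 158 in MIWI +/KI. It read 276 and 291 in MIWI -/- and 394 and 380 in MIWI -/KI. The median change of all 6 was -0.031, so the sums do not show a rise of these markers as a set. None of 8 spermatogonia markers passed (sums of 1314 to 1413, 1418 to 1477, 1429 to 1565 and 1503 to 1679), nor any of 4 Leydig cell markers (286 to 373, 253 to 329, 323 to 637 and 529 to 561). Of 10 spermatocyte markers Syce2 fell (-1.15), and of 11 round spermatid markers Tex101 rose (2.12) and Tnp1 (-2.49), Prm1 (-2.14) and Tssk2 (-0.83) fell. No marker stood at 0 on any array, but a value above 0 does not show that a cell type was present. Dhh (37.2 to 58.8), Amh (30.8 to 53.6), Hsd3b1 (24.0 to 33.8) and Pecam1 (38.5 to 55.8) lay below every array median (66.6 to 71.8). Others, such as Clu (344 to 729), lay above all of these medians. The part of these cells in the values of the channel genes was not tested.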
